A study of Mus musculus with 9 samples.

Results

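The MS4A family was examined in mouse macrophage lines of 3 origins by bulk RNA-seq. Its members were the genes Ms4a1, Ms4a4a, Ms4a4b, Ms4a4c, Ms4a6b, Ms4a6c, Ms4a6d and Ms4a7, taken by symbol from the deposited table of 24411 genes. Of these 8 genes, 7 had a row under their symbol, and Ms4a4a was not analysed here. The lines were 3 YS lines from E9.5 yolk sac, 3 FL lines from fetal liver at E14.5 and 3 BM lines from adult bone marrow, each from C57BL/6 mice. All were genetically unmodified and depend on the growth factor M-CSF, which all 3 groups received at 100 ng/mL throughout culture. Lines were cultures grown apart from each other in their own vessels, but the starting cells of more than 1 mouse were mixed, so p-values measure the spread between cultures and not between animals. Each line gave 1 library, with no uncultured tissue macrophages beside it.

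MS4A genes encode small membrane proteins that cross the membrane 4 times and act mainly as partners of other receptors and adaptors. Ms4a1 encodes CD20, the classical B cell surface marker, and Ms4a4b is best known from T cells. Ms4a6b, Ms4a6c, Ms4a6d and Ms4a7 are expressed by myeloid cells, Ms4a7 being widely used as a marker of tissue macrophages. The genes lie side by side in a cluster on chromosome 19 and arose by repeated duplication, so that neighbours are close in sequence.

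In the gene order of RefSeq, the members ran Ms4a1, Ms4a7, Ms4a4a, Ms4a4c, Ms4a4b, Ms4a6c, Ms4a6b and Ms4a6d. The 250 bases upstream of the annotated start were read from RefSeq (GRCm38.p6) for 6 of the 8 members. Both pairs of close relatives are shown, since the results turn on how differently such relatives were expressed. Capitals mark each stretch of 12 or more bases that occurs in both genes of a pair. Where such stretches touch, as near the end of the Ms4a4b window, the capitals run on unbroken. The windows are at chr19:11469118-11469367 for Ms4a6c, chr19:11518309-11518558 for Ms4a6b, chr19:11407411-11407660 for Ms4a4c and chr19:11443308-11443557 for Ms4a4b, all on the plus strand.
Ms4a6c: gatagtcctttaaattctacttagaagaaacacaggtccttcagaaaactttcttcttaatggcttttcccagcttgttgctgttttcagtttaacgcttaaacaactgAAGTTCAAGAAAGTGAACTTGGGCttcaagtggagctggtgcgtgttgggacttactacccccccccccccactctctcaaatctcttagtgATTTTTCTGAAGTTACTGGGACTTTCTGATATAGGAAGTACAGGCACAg
Ms4a6b: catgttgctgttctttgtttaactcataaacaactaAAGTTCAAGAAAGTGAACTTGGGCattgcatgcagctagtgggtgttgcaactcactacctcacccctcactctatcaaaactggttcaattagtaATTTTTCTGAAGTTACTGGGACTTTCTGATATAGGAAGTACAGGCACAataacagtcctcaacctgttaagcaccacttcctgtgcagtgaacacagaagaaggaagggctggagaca
Ms4a4c: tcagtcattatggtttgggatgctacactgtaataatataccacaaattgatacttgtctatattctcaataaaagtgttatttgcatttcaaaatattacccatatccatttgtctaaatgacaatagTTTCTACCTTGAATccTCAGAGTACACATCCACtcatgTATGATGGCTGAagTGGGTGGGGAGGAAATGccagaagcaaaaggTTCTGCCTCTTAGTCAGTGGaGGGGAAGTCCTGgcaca
Ms4a4b: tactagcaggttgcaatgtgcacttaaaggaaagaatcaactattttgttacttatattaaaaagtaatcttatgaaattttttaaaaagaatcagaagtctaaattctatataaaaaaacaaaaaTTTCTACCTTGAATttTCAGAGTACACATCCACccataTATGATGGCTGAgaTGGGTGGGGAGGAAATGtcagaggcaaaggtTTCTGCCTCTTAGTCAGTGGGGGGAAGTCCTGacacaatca
Ms4a6c and Ms4a6b shared an unbroken run of 48 bases, which ended 2 bases before the start of Ms4a6c and 71 bases before that of Ms4a6b. In a global alignment, 59.6% of the 250 bases were identical in this pair and 74.0% in the pair of Ms4a4c and Ms4a4b, whose longest shared run was 20 bases. The other 19 pairs among the 7 windows of the family (Ms4a7 has 2 starts) had between 50.0% and 56.4% identical bases and no shared run over 9 bases. The transcripts are related too. Over all 75-base windows of the GENCODE M21 transcripts, the length of a read here, 99.4% were unique to the gene for Ms4a6b, 97.1% for Ms4a6c, 99.6% for Ms4a6d, 98.8% for Ms4a4b, 96.2% for Ms4a4c and all of them for Ms4a7. A read from the remaining windows cannot be told apart between the genes that share them, which were other Ms4a genes and, for Ms4a6c, also Prdm11. The longest identical runs were 127 bases between Ms4a4b and Ms4a4c, 96 bases between Ms4a6b and Ms4a6c and 81 bases between Ms4a6b and Ms4a6d.

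Expression is given as TPM, the share of a library's transcripts that come from a gene, which accounts for length and allows levels to be compared between genes. Read depth cannot be recovered from TPM and is unknown, and precision was judged from how far lines of the same origin differed. In bulk cultures, fewer expressing cells and less RNA per cell cannot be told apart. A gene was called differentially expressed when its adjusted p in limma was below 0.1 and it differed by over 2-fold, both on log2(TPM + 1), fitted over the 11753 genes that reached 1 TPM in 3 or more libraries. Of the members, 6 passed this filter and Ms4a1 did not. Ms4a4b and Ms4a4c stayed below 1 TPM in each BM line and passed only through YS and FL lines. That they were higher there than in BM lines was therefore favoured by the filter itself. The fit shares a single estimate of the spread among the 3 groups. A wide spread among YS lines therefore also widens the intervals of FL against BM lines.

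Both YS line 1 and BM line 2 stood apart from the other lines of their groups. YS line 1 correlated with YS lines 2 and 3 at r = 0.942 and 0.912 over the tested genes, while pairs within the other groups ranged from 0.947 to 0.985. BM line 2 had 227 genes more than 2-fold above both other BM lines, against 24 in BM line 1 and 23 in BM line 3. Taking the 45 genes that reached 20 TPM in YS line 2 but stayed below 0.5 TPM in the other BM lines, its median level was 14.1% of that in YS line 2. Only the comparison with YS line 2 is given here. Calls of members are given with and without YS line 1 and BM line 2.

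Ms4a7 and Ms4a6d were the most abundant members, followed by Ms4a6c and Ms4a6b. Mean Ms4a7 was 348 ± 360 TPM across YS lines, 328 ± 74.9 TPM across FL lines and 404 ± 33.7 TPM across BM lines (SD, n = 3 lines each). Mean Ms4a6d was 137 ± 84.4, 207 ± 39.6 and 263 ± 16.8 TPM in the same order (SD, n = 3 each). The order of means from Ms4a7 over Ms4a6d and Ms4a6c to Ms4a6b was the same in the 3 groups, although in YS lines neighbours in that order did not differ beyond their spread. Ms4a4b and Ms4a4c were far lower, with group means between 0.34 and 4.07 TPM. The summed TPM of the 7 genes was 113.5, 612.5 and 1140 in YS lines 1 to 3, 569.3, 792.2 and 786.9 in FL lines and 805.7, 723.0 and 702.3 in BM lines. YS line 1 was the lowest of all 9 lines and YS line 3 the highest.

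**Figure D1:**
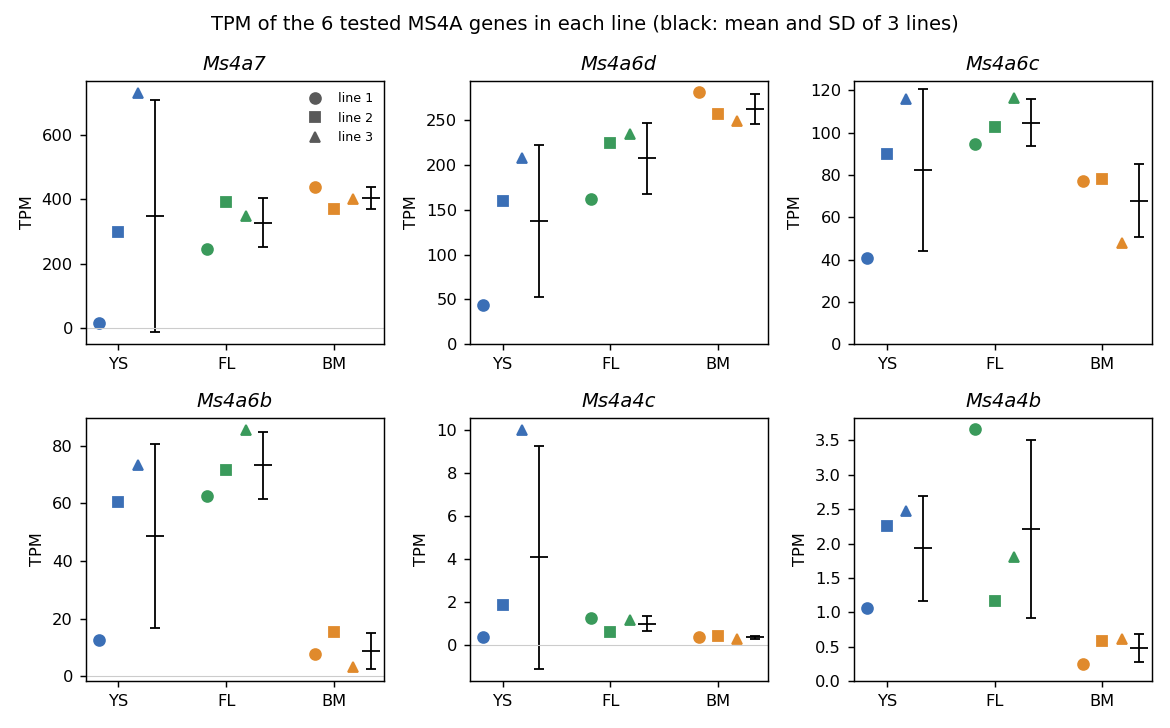
TPM (linear axes, a separate scale for each gene) of the 6 tested members in the 3 YS, 3 FL and 3 BM lines. Each marker is 1 line, and the black bar gives the mean and SD of 3 lines. Ms4a6b was at most 15.36 TPM across BM lines and at least 62.41 TPM across FL lines, while YS line 1 was the lowest YS line for each gene.

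On the log2(TPM + 1) scale, Ms4a6b had the largest difference of the 6 tested members in both comparisons with BM lines. It was at 12.53, 60.29 and 73.20 TPM across YS lines 1 to 3, at 62.41, 71.53 and 85.53 TPM across FL lines and at 7.68, 15.36 and 3.07 TPM across BM lines. Each FL line lay above each BM line, whereas YS line 1 fell below BM line 2. Ms4a6b was higher in FL than in BM lines (log2 fold change 3.14, SE 0.67, limma adjusted p = 0.013) and higher in YS than in BM lines (log2 fold change 2.24, SE 0.67, limma adjusted p = 0.038). On the linear scale the mean was 8.41-fold higher in FL lines and 5.59-fold higher in YS lines than in BM lines. Without BM line 2, the log2 fold change was 3.63 for FL lines (limma adjusted p = 0.015) and 2.73 for YS lines (limma adjusted p = 0.034). Without YS line 1, the difference of YS lines from BM lines was 3.02 (limma adjusted p = 0.0068). The call for YS lines was lost without BM line 1 (2.27, limma adjusted p = 0.10), without BM line 3 (1.73, limma adjusted p = 0.13) and without YS line 2. The call for FL lines held in each of the 21 alternatives, between 2.63 and 3.90. In BM line 2, Ms4a6b was at 25.5% of its level in YS line 2. Unlike the 45 genes above, it was expressed in BM lines 1 and 3 too, so this value is not on their measure. Whether the level of Ms4a6b in BM line 2 is linked to those of the 45 genes was not tested.

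The other members of the Ms4a6 group differed less from BM lines or in the other direction. Ms4a6d was at 43.70, 160.14 and 207.84 TPM across YS lines, at 161.84, 224.58 and 235.00 TPM across FL lines and at 281.63, 257.18 and 249.50 TPM across BM lines. Each BM line was above each YS and each FL line, whereas for Ms4a6b each BM line was below each FL line. Ms4a6d was called lower in YS than in BM lines (log2 fold change -1.20, SE 0.49, limma adjusted p = 0.099). That call lay just inside the threshold and held in 8 of the 21 alternatives. It was lost without YS line 1, where the difference was -0.52 (limma adjusted p = 0.071), without any of the BM lines (-1.24 to -1.15, limma adjusted p of 0.18 to 0.22), without any of the FL lines (limma adjusted p of 0.12 to 0.13) and with a pseudocount of 0.1 (limma adjusted p = 0.10). For FL against BM lines the log2 difference was -0.36 (95% interval -1.47 to 0.75, limma adjusted p = 0.65), which became 0.40 when each library was centred on its chromosome 19 genes. With only the 6 FL and BM libraries, limma adjusted p for this difference was 0.12.

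Ms4a6c was at 40.64, 89.73 and 115.96 TPM across YS lines, at 94.65, 102.80 and 116.43 TPM across FL lines and at 77.18, 78.06 and 47.75 TPM across BM lines. Each FL line lay above each BM line, and YS lines overlapped both groups. Neither difference from BM lines was called: the log2 difference was 0.65 for FL lines (95% interval -0.16 to 1.46, limma adjusted p = 0.24) and 0.18 for YS lines (95% interval -0.63 to 1.00, limma adjusted p = 0.72). Without YS line 1, the difference was 0.65 for FL lines (limma adjusted p = 0.051) and 0.62 for YS lines (limma adjusted p = 0.083), both short of 2-fold. Without BM line 2, it was 0.77 for FL lines (limma adjusted p = 0.27) and 0.30 for YS lines (limma adjusted p = 0.63). The value for YS lines changed sign without YS line 3 or without BM line 3. In BM lines, Ms4a6b was at 0.0995, 0.197 and 0.0643 of the Ms4a6c level. Any part of the upstream sequences of these genes in their levels was not tested.

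Ratios between relatives within a line set aside whatever scales both genes of that library alike. They were chosen after the values were seen and are given without a test. Ms4a6b stood at 0.287, 0.376 and 0.352 of the Ms4a6d level in YS lines 1 to 3, at 0.386, 0.319 and 0.364 in FL lines and at 0.0273, 0.0597 and 0.0123 in BM lines. YS line 1, which was low for both genes, fell close to the other YS lines in this ratio. All 6 YS and FL lines lay between 0.287 and 0.386, and BM lines were at 0.0597 or less. Put the other way, there was between 2.59 and 3.49 times as much Ms4a6d as Ms4a6b in YS and FL lines and between 16.7 and 81.3 times as much in BM lines. The ratio of Ms4a6b to Ms4a6c was 0.308, 0.672 and 0.631 in YS lines and between 0.659 and 0.735 in FL lines, against at most 0.197 in BM lines. The ratio of Ms4a7 to Ms4a6d lay between 1.44 and 1.74 in the FL and BM lines but was 0.349, 1.86 and 3.51 in YS lines 1 to 3.

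**Figure D2:**
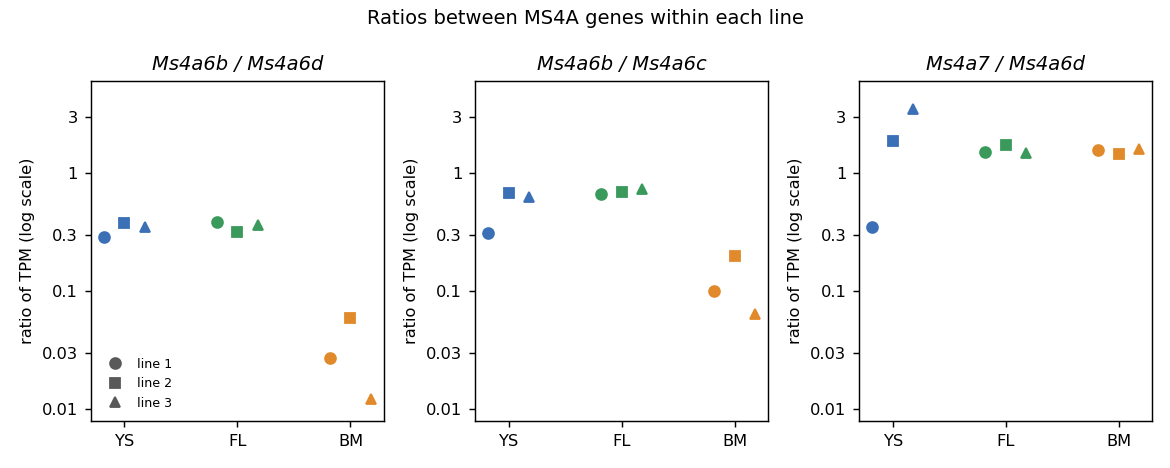
Ratios of TPM between members within each line (log axis, 1 marker per line). Ms4a6b to Ms4a6d was at least 0.287 in each YS and FL line and at most 0.0597 in each BM line, while Ms4a7 to Ms4a6d spread from 0.349 to 3.51 among YS lines.

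Ms4a7 varied more between YS lines than between origins. It was at 15.24, 298.10 and 729.49 TPM across YS lines 1 to 3, at 245.39, 391.53 and 346.91 TPM across FL lines and at 438.60, 371.34 and 401.08 TPM across BM lines. YS line 1 was the lowest and YS line 3 the highest of the 9 lines, and the groups overlapped. The log2 difference was -1.40 between YS and BM lines (95% interval -4.00 to 1.19, limma adjusted p = 0.38) and -0.32 between FL and BM lines (95% interval -2.92 to 2.27, limma adjusted p = 0.87). The first became 0.21 without YS line 1 and -2.53 without YS line 3, which made Ms4a7 a called member (limma adjusted p = 0.095), and the second became 0.43 when libraries were centred on chromosome 19 genes. These wide intervals do not show that Ms4a7 was equal among the groups. They rest on the spread of all 3 groups, and the SD of log2(TPM + 1) was 2.87 in YS, 0.35 in FL and 0.12 in BM lines. With only the 6 FL and BM libraries, limma adjusted p for FL against BM lines was 0.22.

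Low values in YS line 1 were shared across the family. For 5 of the 6 tested members, all but Ms4a4b, YS line 1 was more than 2-fold below both other YS lines in TPM + 1, as were 4.73% of all tested genes. The ratio of TPM to the lower of YS lines 2 and 3 was smallest for Ms4a7, which was 19.6-fold lower in YS line 1. Ms4a6b was 4.81-fold lower, Ms4a6d 3.66-fold, Ms4a6c 2.21-fold and Ms4a4b 2.13-fold. Ms4a4c was 5.47-fold lower, but at only 0.34 against 1.86 TPM. On the log2(TPM + 1) scale the gap of Ms4a7 was -4.20, and only 11 of the 11753 tested genes had a lower gap. That of Ms4a4c was -1.09, smaller than those of Ms4a6b (-2.18) and Ms4a6d (-1.85). In YS line 3, Ms4a7 and Ms4a4c were instead more than 2-fold above both other YS lines. Of the general macrophage markers, Cd68 (a lysosomal glycoprotein) was at 1018.47 TPM in YS line 1 against 2256.36 and 2041.84 TPM across YS lines 2 and 3. Lyz2 (lysozyme) was at 1163.15 TPM against 3531.31 and 3031.39 TPM, and Csf1r, the M-CSF receptor, at 1085.83 TPM against 1881.98 and 1889.35 TPM. Of the 8 macrophage markers, these 3 and Fcgr1 were lowest in YS line 1 among YS lines and the other 4 (Adgre1, Itgam, Mertk and Cd14) were not. The part of these differences in the MS4A values of YS line 1 was not tested.

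**Figure D3:**
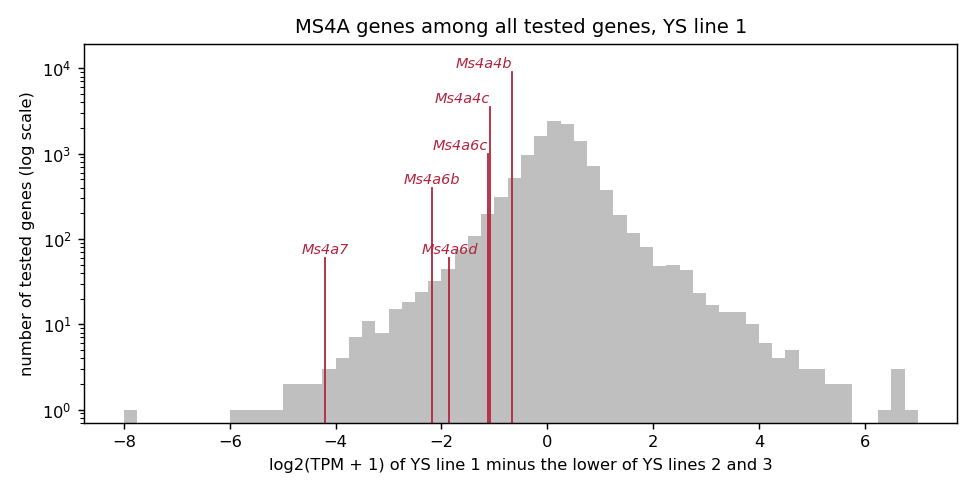
Distribution over the 11753 tested genes of the difference in log2(TPM + 1) between YS line 1 and the lower of YS lines 2 and 3 (x axis), with the number of genes per bin on a log axis. Red lines mark the 6 tested members, which lie between -4.20 (Ms4a7) and -0.66 (Ms4a4b); their heights carry no value.

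The remaining members were low in all groups. Ms4a4b was at 1.06, 2.26 and 2.47 TPM across YS lines, at 3.66, 1.16 and 1.81 TPM across FL lines and at 0.24, 0.58 and 0.61 TPM across BM lines. Each YS and each FL line was above each BM line. It was called higher in FL than in BM lines (log2 fold change 1.05, SE 0.34, limma adjusted p = 0.060), while the difference of YS from BM lines was 0.96 (SE 0.34, limma adjusted p = 0.065) and thus short of 2-fold on the log2(TPM + 1) scale, which understates changes of genes this low. The call for FL lines held in 4 of the 9 fits that left out a line. It was lost without BM line 2 (1.11, limma adjusted p = 0.12), BM line 1 (0.93), BM line 3 (1.12), FL line 1 (0.75) or FL line 3 (1.11), and with the replicate number as a block (limma adjusted p = 0.11), and the one for YS lines was gained without YS line 1 (1.20, limma adjusted p = 0.037). Ms4a4c, an interferon-inducible relative, was at 0.34, 1.86 and 10.02 TPM across YS lines, at 1.23, 0.57 and 1.13 TPM across FL lines and at 0.35, 0.41 and 0.26 TPM across BM lines. FL lines lay above BM lines and YS lines overlapped both groups, and neither difference was called (log2 difference 1.38 for YS and 0.55 for FL lines against BM lines, limma adjusted p = 0.14 and 0.60). For YS lines, it was 2.07 without YS line 1 (limma adjusted p = 0.024) and 0.55 without YS line 3 (limma adjusted p = 0.28). For FL lines, limma adjusted p was 0.12 with only the 6 FL and BM libraries. Ms4a1 reached 0.87 TPM in YS line 3 and 0.16 TPM or less in the other 8 lines, and was listed at 0 in 4 of the 9 lines.

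Counted over the family, 2 of the 6 tested members were called between YS and BM lines (Ms4a6b higher and Ms4a6d lower in YS lines), where 12.8% of all tested genes passed (7.57% upward and 5.22% downward in YS lines). Between FL and BM lines, 2 of 6 were called (Ms4a6b and Ms4a4b, both higher in FL lines), against 10.3% of all tested genes, 6.01% being higher in FL lines. The 2 comparisons share the BM lines. Ms4a4b and Ms4a4c, which passed the filter only through YS and FL lines, enter these counts and those below. Groups did not overlap for 2 members between YS and BM lines (49.0% of all tested genes) and for 5 members between FL and BM lines (49.5% of all tested genes). Without YS line 1, the members called between YS and BM lines were Ms4a4b, Ms4a4c and Ms4a6b and those between FL and BM lines were still Ms4a4b and Ms4a6b. Without YS line 3, those between YS and BM lines were Ms4a6b, Ms4a6d and Ms4a7, and without BM line 2 only Ms4a6b remained called in either comparison.

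Between YS and FL lines, limma called 0 of the 6 tested members, against 3.79% of all tested genes. No member passed an unadjusted p of 0.05 (the lowest limma p was 0.12, for Ms4a6d), and 0 were called in each of the 21 alternatives. The groups overlapped for each member, as they did not for 26.1% of all tested genes. The log2 differences, YS minus FL lines, were -0.90 for Ms4a6b (95% interval -2.43 to 0.63), -0.84 for Ms4a6d (-1.96 to 0.27), -0.47 for Ms4a6c (-1.28 to 0.35) and -0.09 for Ms4a4b (-0.86 to 0.68). They were 0.83 for Ms4a4c (-0.63 to 2.30) and -1.08 for Ms4a7 (-3.68 to 1.51). Without YS line 1 they became -0.13 for Ms4a6b, -0.16 for Ms4a6d, -0.03 for Ms4a6c, 0.14 for Ms4a4b, 1.52 for Ms4a4c and 0.53 for Ms4a7, and without YS line 3 that of Ms4a4c was 0.00 and that of Ms4a7 -2.21. The intervals include changes of more than 2-fold for each of them but Ms4a4b.

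The cluster lies on a chromosome whose genes as a whole were higher in BM lines. Of the 420 other tested genes of chromosome 19, 355 (84.5%) were lower in YS than in BM lines, with a median log2 difference of -0.53, and 369 (87.9%) were lower in FL than in BM lines, with a median of -0.80. The medians over all tested genes were 0.11 and 0.09. Among them 79 were called lower and 13 higher in YS lines, and 106 were called lower and 10 higher in FL lines. The 6 tested members had medians of 0.57 for YS and 0.60 for FL lines against BM lines, and 4 of the 6 were above 0 in each comparison (Ms4a4b, Ms4a4c, Ms4a6b and Ms4a6c). Of these, Ms4a4b and Ms4a4c passed the filter only through YS and FL lines, so their sign and the medians of the members are no independent contrast to the chromosome. Ms4a6d and Ms4a7 had the sign of the chromosome. When each library was centred on its chromosome 19 genes, Ms4a6b, Ms4a4b and Ms4a4c were called higher in YS lines and Ms4a6b, Ms4a4b and Ms4a6c in FL lines, while Ms4a6d was no longer called. This centring called 23.6% of all tested genes higher in YS and 34.3% higher in FL than in BM lines.

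Most genes flanking the cluster were lower in YS and FL than in BM lines, and those that were higher all lay on the side of Ms4a1. On the side of Ms4a1, Slc15a3, which encodes an endolysosomal peptide and histidine transporter, was at 42.62, 122.93 and 150.95 TPM across YS lines, at 163.93, 120.99 and 178.37 TPM across FL lines and at 35.16, 67.86 and 32.97 TPM across BM lines. As with Ms4a6b, FL lines lay above BM lines, YS line 1 was the lowest YS line and BM line 2 the highest BM line (FL minus BM lines 1.81, SE 0.46, limma adjusted p = 0.027). Without YS line 1, Slc15a3 was called higher in YS than in BM lines too (1.64, limma adjusted p = 0.011). Tmem132a was higher than in BM lines in YS (log2 fold change 2.31) and FL lines (2.52), and Tmem109 was lower (-1.13 and -1.31). On the side of Ms4a6d, Mpeg1, which encodes the pore-forming protein perforin-2 of macrophages, was lower in YS (-1.46, limma adjusted p = 0.0018) and FL lines (-1.91, limma adjusted p = 0.00053). Of the 10 nearest tested genes, 5 on each side, limma called 1 higher and 2 lower in YS than in BM lines. It called 2 higher and 2 lower in FL than in BM lines. Between YS and FL lines it called 0, with 3 at an unadjusted limma p under 0.05. In the same order, 12.8%, 10.3% and 3.79% of all tested genes were called. Called or not, 7 of the 10 were lower in YS and 8 in FL than in BM lines, with median log2 differences of -0.36 and -0.66. Over all tested genes, 41.2% and 40.9% were lower. Within the cluster, the long non-coding RNA AW112010 was at 51.55 TPM in YS line 3 and at 6.80 TPM or less in the other lines.

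**Figure D4:**
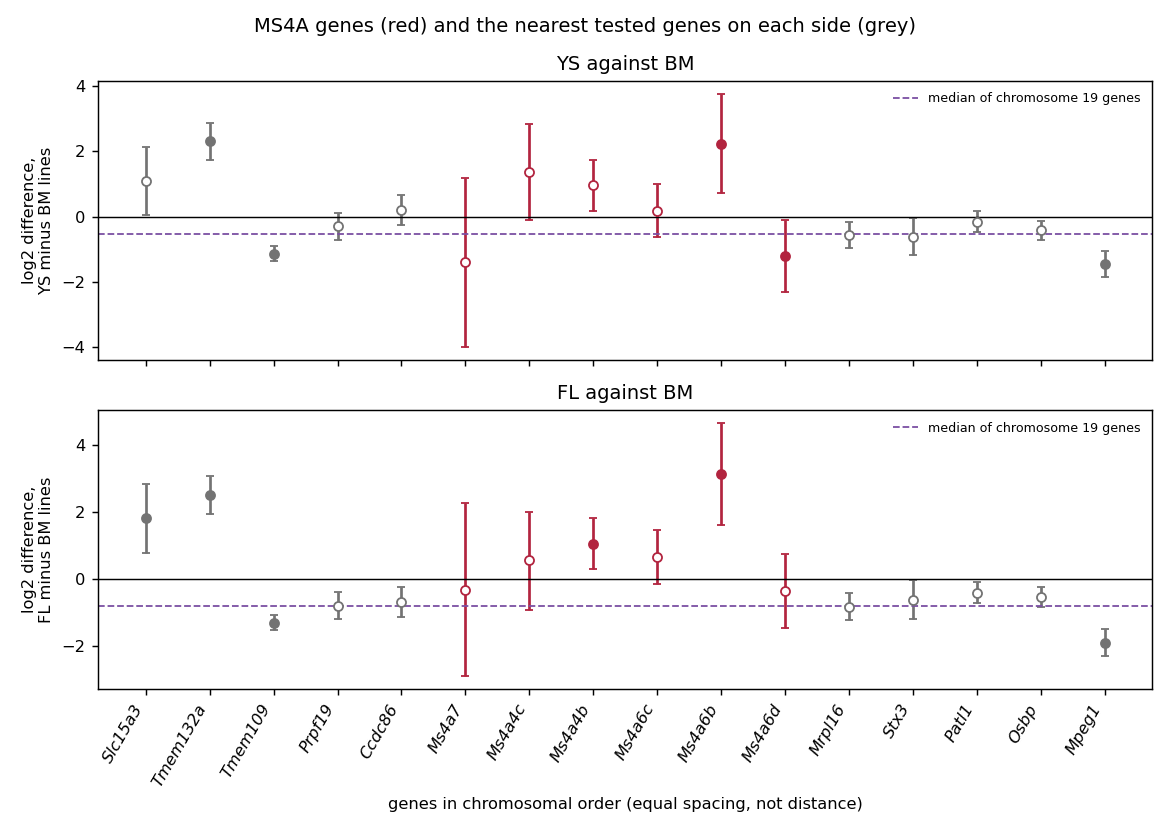
Log2 difference from BM lines (y axis, with 95% intervals from limma) of the tested members (red) and the 5 nearest tested genes on each side (grey), in chromosomal order with equal spacing. Filled points were called, and the dashed line marks the chromosome 19 median of -0.53 for YS and -0.80 for FL lines; Ms4a6b lies above it at 2.24 and 3.14 and Mpeg1 below it at -1.46 and -1.91.

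The other Ms4a genes with a row were listed at 0 or close to it, while Ms4a12 and Ms4a14 had no row. Ms4a4d, which lies between Ms4a6b and Ms4a6d, reached at most 0.43 TPM. The genes Ms4a2 (the beta chain of the high-affinity IgE receptor), Ms4a3, Ms4a5, Ms4a8a, Ms4a10, Ms4a13, Ms4a15 and Ms4a18 were listed at 0 in all 9 libraries. Tmem176a and Tmem176b, related genes on chromosome 6 whose proteins also cross the membrane 4 times, had another pattern, with YS lines on top. Tmem176b was at 711.54, 645.04 and 871.22 TPM across YS lines, at 496.51, 404.13 and 268.83 TPM across FL lines and at 400.91, 384.64 and 466.44 TPM across BM lines. Each YS line was above each FL and BM line, including YS line 1, in which the MS4A genes were low. The difference passed the adjusted p but not the 2-fold threshold (0.82 against BM lines, limma adjusted p = 0.026, and 0.96 against FL lines, limma adjusted p = 0.049).

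Genes of proteins with which MS4A proteins are known to act, and of the TREM2 sheddases, made a list of 12, of which 11 were tested, and between 0 and 2 of the 11 were called in each comparison, where 12.8% (YS against BM), 10.3% (FL against BM) and 3.79% (YS against FL) of all tested genes were. Between YS and BM lines, Tnfrsf18 (the costimulatory receptor GITR) was called higher in YS lines (log2 fold change 1.10, limma adjusted p = 0.034) and Cd300lb (an activating immune receptor) lower (-1.11, limma adjusted p = 0.072). Neither was called without YS line 1 (0.94 and -0.64), and Cd300lb was not called without BM line 2 (limma adjusted p = 0.13). Between FL and BM lines, the Src family kinase gene Lyn was called higher in FL lines (1.05, limma adjusted p = 0.0021), and 0 of the 11 were called between YS and FL lines, where 3 had an unadjusted limma p under 0.05. Median log2 differences over the list were 0.00 for YS against BM, -0.17 for FL against BM and -0.08 for YS against FL lines, beside 0.11, 0.09 and 0.02 over all tested genes. Trem2, a lipid-sensing myeloid receptor whose shed form has been tied to the human MS4A locus, was at 796.49, 1065.83 and 859.64 TPM across YS lines, at 1171.81, 1361.11 and 1391.16 TPM across FL lines and at 1607.88, 1600.84 and 1695.80 TPM across BM lines. The 3 groups did not overlap, and BM lines were above YS lines by less than 2-fold (-0.86, SE 0.13, limma adjusted p = 0.0039). Cd300lb was at 47.62 TPM in YS line 1 against 130.67 and 122.42 TPM across YS lines 2 and 3.

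The tested genes most like each member in their pattern over the 9 lines were found by Pearson's r of log2(TPM + 1), as a description of likeness in libraries that also share their group structure. Ms4a6b was most like Sash3 (r = 0.995), Lgals9 (r = 0.982) and Cd300lh (r = 0.980), on chromosomes X and 11. Lgals9, which encodes galectin-9, was at 160.75, 527.10 and 509.47 TPM across YS lines, at 618.74, 628.89 and 563.34 TPM across FL lines and at 113.07, 174.31 and 32.58 TPM across BM lines. Like Ms4a6b, it was lowest in BM line 3, and YS line 1 fell below BM line 2. Ms4a6d was most like Xdh (r = 0.990) and Vopp1 (r = 0.989), and Ms4a7 was most like Uxt (r = 0.992), Cpeb2 (r = 0.982) and Mcu (r = 0.975). Without YS line 1, r was 0.912 for Xdh and 0.905 for Vopp1 with Ms4a6d, and 0.926 for Uxt, 0.771 for Cpeb2 and 0.601 for Mcu with Ms4a7, while it was 0.980 or more for the 3 genes most like Ms4a6b. Xdh, which encodes xanthine dehydrogenase, was at 39.50, 136.20 and 148.75 TPM across YS lines, between 111.90 and 152.44 TPM across FL lines and between 159.06 and 180.92 TPM across BM lines. Ms4a6c was most like Plk3 (r = 0.951), Ms4a4b like Mmp13 (r = 0.966) and Ms4a4c like Golga3 (r = 0.988), none of them on chromosome 19. Between members, the highest r over the 9 lines was 0.946 for Ms4a6d and Ms4a7, which dropped to 0.448 without YS line 1. Ms4a6b and Ms4a6c had r of 0.827 with and 0.927 without that line, and Ms4a6b and Ms4a6d 0.028 with and -0.624 without it.

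Markers of the labelled cell type were present in each library. The 8 macrophage markers, among them Csf1r, Adgre1, Itgam, Cd68 and Mertk, were all above 9 TPM in all 9 libraries except Fcgr1, which was at 5.47, 42.10 and 1.68 TPM across BM lines. Markers of the lymphoid cells in which Ms4a1 and Ms4a4b are otherwise expressed were low, as were these 2 genes themselves (at most 0.87 and 3.66 TPM). The 7 B cell markers summed to between 0.16 and 5.82 TPM per library and the 9 T and NK cell markers to between 0.76 and 5.16 TPM. Of the 9, 5 were at 0 in all libraries, including Cd3d, Cd3e and Cd3g, but Lck was between 0.52 and 4.65 TPM. Among the B cell markers, Cd22 reached 5.82 TPM in FL line 3. The B cell sum was 0.90 to 2.83 TPM across YS lines, 0.17 to 5.82 TPM across FL lines and 0.16 to 0.45 TPM across BM lines. The T and NK cell sum was 2.28 to 5.16 TPM across YS, 0.76 to 3.49 TPM across FL and 0.99 to 2.27 TPM across BM lines. The part of either cell type in the values of Ms4a4b and Ms4a1 was not tested. The 7 mast cell markers summed to at most 5.55 TPM, the 4 monocyte markers to at most 7.92 TPM (0.04 to 0.28 TPM among BM lines, 1.55 to 7.92 TPM among YS lines) and the 5 dendritic cell markers to at most 8.32 TPM. The 6 granulocyte precursor markers summed to 10.8 to 25.1 TPM in FL lines, above the 0.39 to 3.43 TPM of YS and 3.49 to 5.00 TPM of BM lines. S100a8 alone made up nearly all of the FL sum (10.49, 25.11 and 24.20 TPM), while Elane, Ctsg and S100a9 were at 0 in all libraries, Mpo was at 0 in FL lines and Prtn3 was highest in YS line 1 (1.24 TPM). What part such cells had in the MS4A values was not tested.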

How the data were processed

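Bulk RNA-seq of 3 YS, 3 FL and 3 BM lines was analysed from a table of TPM for 24411 gene symbols, deposited by the authors with 2 decimals. Libraries were poly(A)-selected and strand-specific and gave single-end reads of 75 nt. The submitters' processing notes name Trim Galore 0.6.6, STAR 2.7.9a and RSEM 1.3.3, without their roles. The genome build and annotation are not given in the sources used here. TPM was not a count, so the DESeq2 analysis of raw counts described by the study was not repeated. Its thresholds were kept.

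Groups and line numbers came from the sample titles. From TPM, log2(TPM + 1) was computed, and the 11753 genes reaching 1 TPM in 3 or more libraries were fitted with limma 3.58.1 in R 4.3.3. The 9 libraries entered a single model, variances were moderated with a trend on intensity, and Benjamini-Hochberg adjustment was made over all tested genes within a comparison. A call needed an adjusted p below 0.1 and a difference of over 2-fold. This test was tested on simulated data first. Intervals are 95% intervals of the same fit. Exact permutation of 3 lines against 3 cannot give a two-sided p below 0.1. It was computed for the members but is not reported here. Chromosome and gene order were looked up by symbol in RefSeq (24290 of 24411 found). Upstream sequences came from RefSeq (GRCm38.p6) and transcripts from GENCODE M21, which may differ from the annotation behind the TPM.

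The members and gene lists were chosen with earlier results of these data known. Genes named are the members, other Ms4a rows above 0, Tmem176a and Tmem176b, the partner list, the 5 nearest tested genes on each side of the cluster, and genes from the 3 tested genes most like each member, not all of which are reported here. Other Ms4a rows at 0, AW112010, the cell type markers and the ratios were added to these; AW112010 and the ratios were chosen after their values were seen. Alternatives changed the pseudocount, filter, scaling, variance trend, libraries in the fit, thresholds and a replicate block, or left out 1 line at a time.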

Additional observations from a re-analysis of the deposited data

How the results depend on the processing

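Between YS and BM lines, the 2 members called became 1 (Ms4a6b) with no filter, with no intensity trend, with only the 6 libraries of both groups and at a false discovery rate under 0.05. With a pseudocount of 0.1 it stayed at 2, with Ms4a4b (1.81) called in place of Ms4a6d (-1.21). Leaving out a line gave between 0 and 3 called members in this comparison: 0 without BM line 1 or BM line 3, 3 without YS line 1 (Ms4a4b, Ms4a4c, Ms4a6b) or YS line 3 (Ms4a6b, Ms4a6d, Ms4a7), and 1 without YS line 2 (Ms4a6d), any FL line or BM line 2. Between FL and BM lines, the 2 members called became 1 (Ms4a6b) with a pseudocount of 4, with a filter of 5 TPM, with quantile normalization and at a false discovery rate under 0.05, and leaving out a line gave between 1 and 2. Between YS and FL lines the count was 0 throughout. The filter of 5 TPM removed Ms4a4b and Ms4a4c.

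Leaving out a line moved the log2 difference of Ms4a6c between -0.13 and 0.62, of Ms4a4c between 0.55 and 2.07 and of Ms4a7 between -2.53 and 0.21 for YS minus BM lines, and of Ms4a4b between -0.34 and 0.21 and of Ms4a7 between -2.21 and 0.53 for YS minus FL lines. Reversed log2 differences were seen for uncalled values only. For YS minus BM lines, Ms4a7 was 0.21 without YS line 1, and Ms4a6c was -0.13 without YS line 3 and -0.05 without BM line 3. For FL minus BM lines, centring on chromosome 19 genes gave 0.40 for Ms4a6d and 0.43 for Ms4a7. For YS minus FL lines, Ms4a4b was 0.14 without YS line 1 and 0.21 without FL line 1, and Ms4a7 was 0.53 without YS line 1. Of the other values of single members, 331 kept direction and side of the threshold, 25 lost the call and 8 gained it; apart from the left-out lines and narrower filters or thresholds themselves, the cause was not tested.

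The line numbers did not pair the samples: deviations from the group means correlated between -0.118 and 0.088 for same-numbered lines and between -0.138 and 0.118 for others. With the replicate number as a block, 2 members were called for YS against BM, 1 (Ms4a6b) for FL against BM and 0 for YS against FL lines.

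Centring on chromosome 19 genes moved the median of all tested genes to 0.65 for YS and 0.84 for FL lines against BM lines and the genes called higher and lower to 2771 and 300 and to 4033 and 203. Quantile normalization gave 712 higher and 783 lower in YS lines and 597 and 598 in FL lines, against 890 and 614 and 706 and 505. Called genes in total were 3071 and 4236 with centring, 4455 and 3247 without the fold threshold, and between YS and FL lines 81 with only the 6 libraries. TPM gives no depth, so values below 1 TPM, as of Ms4a1 and Ms4a4b in BM lines, carry an unknown counting error.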
